A study of Mus musculus with 148 samples.

Results

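Chromosome 3 genes that lie far from an inducible *Xist* transgene are described here, to show which of them lost expression from the chromosome that carries it in WT, *Suz12* null and *Lbr* null cells. The transgene sits in the distal part of the chromosome. With earlier results of these data known, the genes were taken by position. They are those with a start below 50 Mb (mm10) in either of the allelic tables of day 3. Of 99 such genes, 5 were left out by name and 6 because their symbols are of the predicted Gm or Rik type, which leaves 88 of the 557 genes in the tables. The nearest member, *Pabpc4l*, ends 79.4 Mb short of the transgene, and the farthest, *Zfhx4*, lies 120.4 Mb away. The WT and *Suz12* null table lists 87 members among its 538 genes, the *Lbr* null table lists 79 among 517, and 78 members are in both.

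The study measured how Xist RNA and the factors it recruits repress genes in mouse embryonic stem cells (mESCs). All libraries come from iXist-Chr3, a male 129S x Cast hybrid line (P4D7F4) in which a TetOn-driven *Xist* transgene integrated at random on the Cast copy of chromosome 3. WT and *Suz12* null cells gave 3 libraries each with doxycycline (Dox) for 72 h and 3 without (NoDox), all at day 3 in differentiation medium, and *Lbr* null cells gave 3 Dox and 3 NoDox libraries from the clones 4C7A, 4C8E and 4F9F under the same regime. A single WT NoDox and Dox pair stands beside the *Lbr* null clones. Its labels name mRNA where the others name chromatin-associated RNA (ChrRNA), so RNA fraction and genotype cannot be told apart in that comparison. The growth protocol in the labels gives a shorter Dox treatment than the titles, and the titles' time, which the paper also states, was used. Of the 148 samples in the series, these 20 libraries were used. *Suz12* and *Lbr* lie on other chromosomes and were not measured in these tables, so the genotypes were taken as labelled and not checked here.

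Xist RNA coats the chromosome it is made from and silences genes along it, and on an autosome it does so from wherever the transgene has landed. SUZ12 is a core subunit of Polycomb repressive complex PRC2, the enzyme that places trimethylation on lysine 27 of histone H3, and LBR is a receptor for lamin B in the inner nuclear membrane that has been proposed to bind Xist RNA. Because the hybrid cells carry sequence differences between their chromosome 3 copies, reads from unspliced and spliced transcripts can be assigned to a copy. The allelic ratio Xi/(Xi + Xa) is the share of assigned reads that come from the Cast allele, which carries *Xist*, and lies near the middle of its range of 0 to 1 when both copies are used alike. Silencing of a gene, z, is its mean Dox ratio minus its mean NoDox ratio, so a more negative z is stronger silencing. Here z under -0.2 is called high, z from -0.2 up to -0.05 low, and z of -0.05 or above weak or no silencing. In these bulk samples a smaller share of cells with Xist RNA and less silencing in each cell cannot be told apart. How many reads stand behind each ratio is not given, apart from a floor on informative reads that the authors applied, so precision was taken from the spread between libraries. The paper calls the replicates biological, and the labels do not say that they came from separate cultures. The p-values measure only the spread between libraries.

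Most distant genes were silenced in WT cells, but weakly. By limma, 66 of 87 members (75.9%) had a lower ratio with Dox at an adjusted p under 0.05, against 85.5% of all genes of the table, and none was raised. A share near the background is not a result about the members, and this one lies below it. In 71 members the Dox and NoDox libraries did not overlap and Dox was lower, against 87.4% of all genes. High silencing was rare, with 10 of 87 members under -0.2 against 39.6% of all genes, while 61 were in the low class and 16 in the weak class. All 87 members had a negative z. The median z was -0.0924, compared with -0.158 over all genes of the table, and 13 members were silenced more than that chromosome-wide median. The median Dox ratio of members was 0.366 after a NoDox median of 0.466, so the Cast allele remained in use at most of these genes. Leaving out replicate 1 gave 49 calls, replicate 2 also 49 and replicate 3 65, and 43 of the 66 passed with each replicate left out in turn.

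The strongest silencing in WT was at *Pabpc4l*, which encodes a relative of the cytoplasmic poly(A)-binding protein and is the member nearest to the transgene. Its ratios were 0.420, 0.541 and 0.500 in the NoDox libraries and 0.211, 0.0625 and 0.105 in the Dox libraries. The groups did not overlap, although the Dox values were widely spread, and z was -0.361 ± 0.0771 (SE, adjusted p = 0.00135). *Tnik*, which encodes a kinase of the Wnt pathway, is 97.1 Mb from the transgene. Its NoDox ratios of 0.504, 0.491 and 0.499 were almost identical, its Dox ratios were 0.164, 0.215 and 0.259, and z was -0.285 ± 0.0332 (SE, adjusted p = 2.08e-05). The Dox libraries of *Tnik* stayed well apart from the NoDox libraries.

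*Slc7a14*, a lysosomal transporter of the cationic amino acid family, lies 94.5 Mb away and gave NoDox ratios of 0.520, 0.524 and 0.419 and Dox ratios of 0.333, 0.0882 and 0.222, with z of -0.273 ± 0.0709 (SE, adjusted p = 0.00441). Its Dox libraries were widely spread but all below the NoDox libraries. *Fat4*, an atypical cadherin of the Hippo pathway, fell from 0.500, 0.569 and 0.615 to 0.217, 0.346 and 0.429, with z of -0.231 ± 0.0647 (SE, adjusted p = 0.00676) and no overlap between groups. At a deposited expression value of 0.0416 RPKM for *Slc7a14* and 0.683 for *Fat4*, these genes were weakly expressed, and their ratios may rest on few reads.

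The 10 highly silenced members were not spread evenly over the region. Counting adjacent members with z under -0.2, *Pld1*, *Tnik* and *Eif5a2* form a run of 3 over 860 kb (chr3:27938680-28798846), 97.0 Mb from the transgene at its nearer end, while *Slc7a14*, *Fat4*, *Hspa4l* and *Pabpc4l* stand alone. *Pld1*, a phospholipase D of membrane traffic, had NoDox ratios of 0.528, 0.606 and 0.625 and Dox ratios of 0.358, 0.291 and 0.450, with z of -0.220 ± 0.0409 (SE, adjusted p = 0.000527). *Eif5a2*, a translation factor related to eIF5A, went from 0.462, 0.420 and 0.476 to 0.245, 0.214 and 0.254, with z of -0.215 ± 0.0180 (SE, adjusted p = 2.22e-06). Neither gene showed overlap between its groups, and *Eif5a2* had the smaller spread. The next gene on the same strand, *Rpl22l1*, begins 6.67 kb past *Eif5a2* and had z of -0.131 ± 0.0492 (SE, adjusted p = 0.0289), outside the run. That call was lost without replicate 2 (adjusted p = 0.0553) or replicate 3 (z of -0.0637, adjusted p = 0.252). *Rpl22l1* was named after its values were seen.

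**Figure D1:**
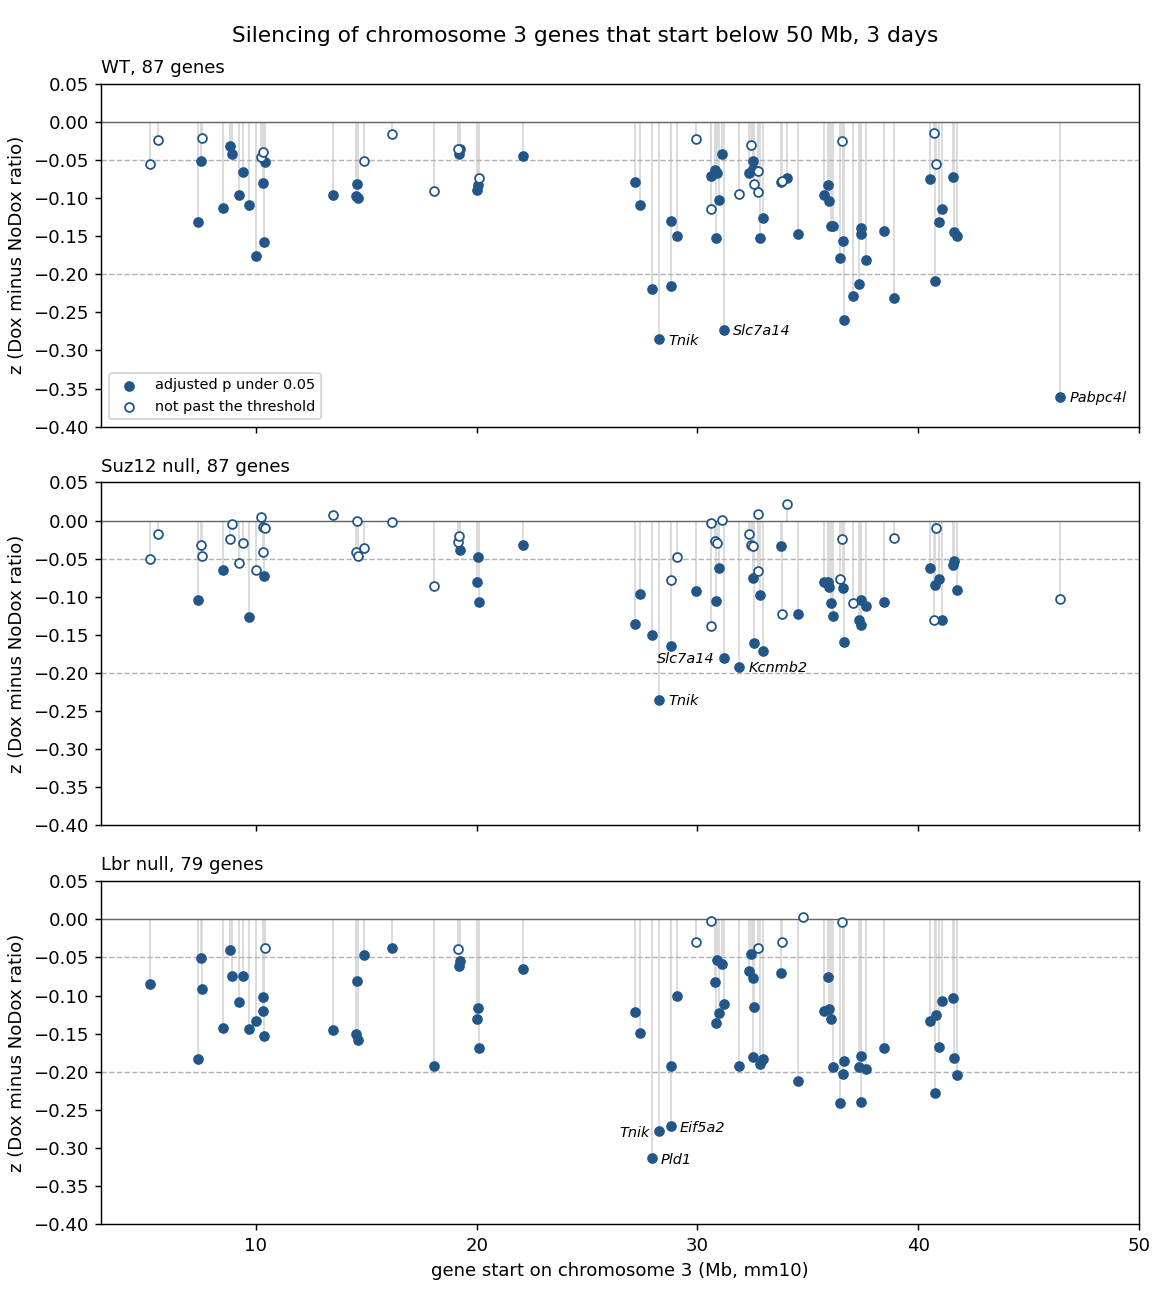
Silencing of each member along chromosome 3. The x axis is the gene start in Mb (mm10) and the y axis is z, where negative values are loss of the Cast allele. Filled points passed limma at an adjusted p under 0.05 and open points did not, dashed lines mark -0.05 and -0.2, and the 3 most silenced genes of each line are labelled. Under -0.2 lie 10 members in WT, 1 in *Suz12* null and 9 in *Lbr* null cells.

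At the other end, a few distant genes gave little or no measurable loss of the Cast allele. *Ythdf3*, a cytoplasmic reader of m6A-marked RNA and a strongly expressed member (75.2 RPKM), had NoDox ratios of 0.467, 0.449 and 0.463 and Dox ratios of 0.445, 0.437 and 0.448. The groups came close without overlap, and z was -0.0164 ± 0.0124 (SE, adjusted p = 0.231). *Pex2*, a peroxisome biogenesis factor, gave 0.433, 0.466 and 0.444 without Dox and 0.415, 0.435 and 0.424 with Dox, with z of -0.0233 ± 0.0235 (SE, adjusted p = 0.360) and overlapping groups. The cytokine gene *Il7* had NoDox ratios of 0.584, 0.543 and 0.537 and Dox ratios of 0.512, 0.524 and 0.563, also overlapping, with z of -0.0216 ± 0.0208 (SE, adjusted p = 0.339). Without replicate 1 its z was 0.00352 (adjusted p = 0.912).

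*Mecom*, which encodes a zinc finger regulator of blood stem cells, differs from these in its starting point. Its NoDox ratios in WT were only 0.0943, 0.0470 and 0.119, so most reads already came from the 129S allele, and its Dox ratios were 0.0628, 0.0426 and 0.0850. With a ratio this low before induction, z has little room to fall, and its value of -0.0232 ± 0.0258 (SE, adjusted p = 0.401) came with overlapping groups. *Slc25a31*, a mitochondrial ADP/ATP carrier best known from germ cells, had the z nearest to 0 of all members, -0.0149 ± 0.0764 (SE, adjusted p = 0.852), but also the largest spread in WT. The NoDox ratios of 0.350, 0.0556 and 0.211 and the Dox ratios of 0.0476, 0.333 and 0.190 overlapped fully, so these values place no useful bound on it. Without replicate 1 its z turned to 0.129 (adjusted p = 0.0941).

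**Figure D2:**
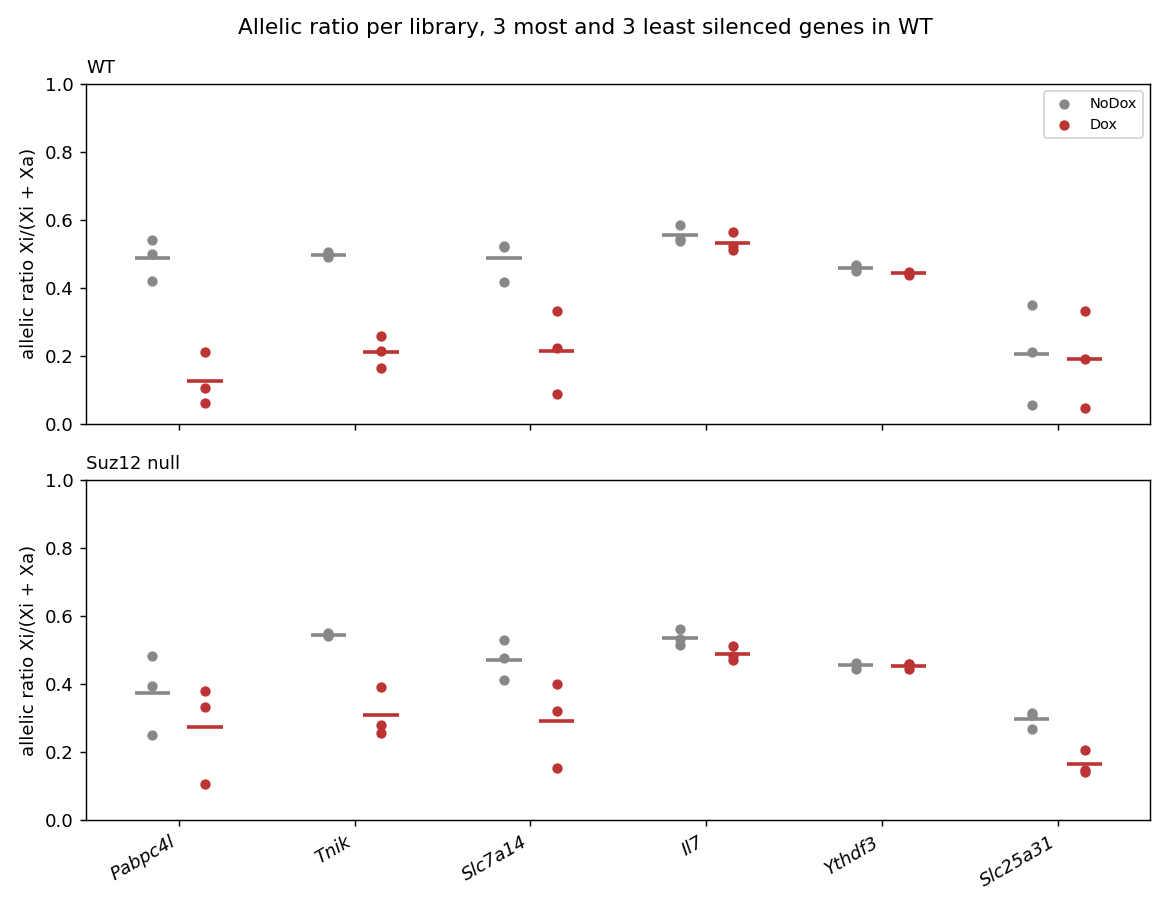
Allelic ratio of the 3 members with the most negative z and the 3 with z nearest to 0 in WT, in every library of WT (top) and *Suz12* null cells (bottom). The y axis is Xi/(Xi + Xa), each point is a library (3 NoDox in grey and 3 Dox in red), and bars are group means. In WT the groups are apart for *Pabpc4l*, *Tnik* and *Slc7a14*, and they overlap for *Slc25a31*.

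In *Suz12* null cells fewer distant genes passed the test. By limma 44 of 87 members (50.6%) were silenced, against 73.2% of all genes, and none was raised. Dox libraries were all lower than the NoDox libraries in 53 members, against 75.1% of all genes. A single member, *Tnik*, had z under -0.2, against 29.7% of all genes, and 35 members were in the weak class. The median z of members was -0.0664, against -0.122 over all genes of the table, and z was negative in 82 of 87. The 5 exceptions, at positive values that did not pass the test, were *Fabp12*, *Ralyl*, *Skil*, *Mrpl47* and *Dnajc19*, of which *Ralyl* and *Mrpl47* were named after their values were seen. None of the 5 kept its sign when each replicate was left out in turn. z turned to -0.0250 for *Fabp12* and -0.00709 for *Skil* without replicate 2, to -0.0680 for *Mrpl47* and -0.00566 for *Dnajc19* without replicate 1, and to -0.0116 for *Ralyl* without replicate 3. The number silenced depends on which libraries enter, since 28 members passed without replicate 1, 28 without replicate 2 and 45 without replicate 3, and 22 passed with each left out in turn.

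*Tnik* was the most silenced member in *Suz12* null cells as well. Its NoDox ratios were 0.550, 0.543 and 0.542, its Dox ratios were 0.257, 0.279 and 0.393, and z was -0.235 ± 0.0332 (SE, adjusted p = 0.000113). All of the Dox libraries were lower, with replicate 3 the least reduced. *Eif5a2* went from 0.440, 0.432 and 0.445 to 0.257, 0.283 and 0.283, with z of -0.165 ± 0.0180 (SE, adjusted p = 2.06e-05). Its Dox libraries were again clear of its NoDox libraries. *Pld1* had z of -0.150 ± 0.0409 (SE, adjusted p = 0.00710), which missed the threshold without replicate 1 (adjusted p = 0.0529). *Slc7a14* had NoDox ratios of 0.412, 0.528 and 0.476 and Dox ratios of 0.321, 0.154 and 0.400, close to each other at their nearest values, and z of -0.180 ± 0.0709 (SE, adjusted p = 0.0401). That call was lost when any replicate was left out, with adjusted p = 0.0582, 0.223 and 0.0704 without replicates 1, 2 and 3 and z between -0.232 and -0.0833.

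Whether silencing of distant genes differed between *Suz12* null and WT cells was tested gene by gene as the difference between the z values of the lines, *Suz12* null minus WT, where a positive value is weaker silencing in the null. By limma no member of 87 passed an adjusted p under 0.05, against 0.372% of all genes. At an unadjusted p under 0.05 limma gave 12 members (13.8%), all with weaker silencing in the null, against 13.2% of all genes. The methods' t-test gave 26 (29.9%), of which 24 were positive, against 21.6%, and after Benjamini-Hochberg adjustment it gave 0 members. Its input was chosen here, as each Dox library against the average NoDox ratio of its line, so it leaves out the spread of the NoDox libraries. The difference was positive in 70 of 87 members, or 80.5%, and in 79.0% of all genes, and its median was 0.0366 over members and 0.0343 over all genes. The share of positive differences, their median and limma's unadjusted share were thus close to those of the whole chromosome. Only the t-test as run here gave a higher share among members, and no conclusion is drawn from it. Per Dox library, taken against the mean NoDox ratio of its line, the median over members was -0.0938, -0.100 and -0.0865 in WT and -0.0731, -0.0823 and -0.0429 in *Suz12* null cells. Over members the libraries of the lines do not overlap, but replicate 2 of the null comes close to WT replicate 3. Over all genes the medians were -0.168, -0.174 and -0.141 in WT and -0.133, -0.141 and -0.0974 in the null, and there the lines overlap, since null replicate 2 was marginally lower than WT replicate 3.

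**Figure D3:**
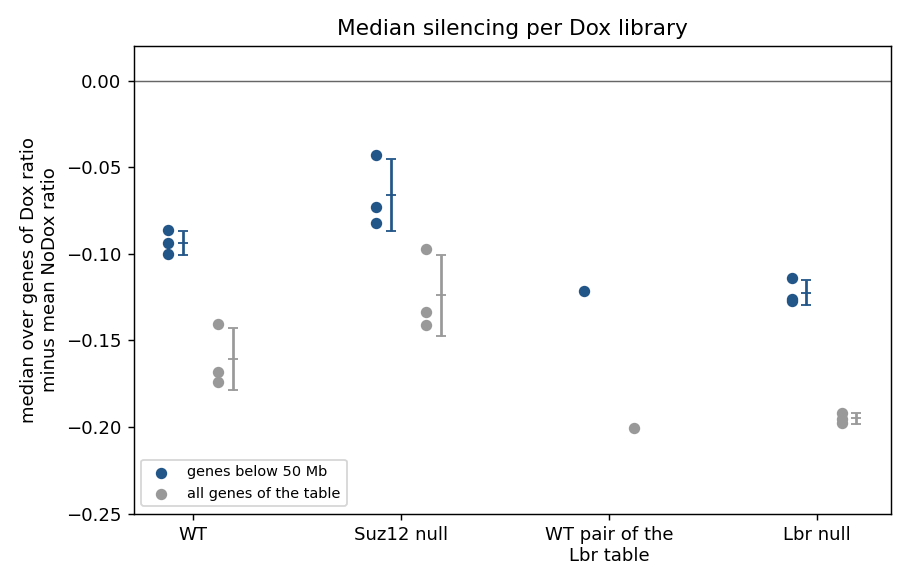
Median silencing per Dox library. Each point is the median over genes of the change of a Dox library from its line's average NoDox value, for members (blue) and all genes of the same table (grey), with the mean and SD beside groups of 3 libraries. In each line the members lie closer to 0 than all genes, with WT members from -0.100 to -0.0865.

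The largest differences were at genes that were strongly silenced in WT. *Pabpc4l* in *Suz12* null cells had NoDox ratios of 0.250, 0.393 and 0.483 and Dox ratios of 0.379, 0.105 and 0.333, which overlapped, and z of -0.103 ± 0.0771 (SE, adjusted p = 0.241). The difference from WT was 0.258 ± 0.109 (SE, adjusted p = 0.367). It rests on a noisy gene, since z in the null was -0.219 (adjusted p = 0.0380) without replicate 1, -0.0101 (adjusted p = 0.917) without replicate 2 and -0.0791 (adjusted p = 0.533) without replicate 3. *Fat4* had 0.583, 0.520 and 0.548 without Dox and 0.577, 0.385 and 0.619 with Dox in the null, again overlapping, and differed by 0.207 ± 0.0915 (SE, adjusted p = 0.367). Only Dox replicate 2 of the null lay below its NoDox range, and z was 0.0325 (adjusted p = 0.705) without it, -0.0320 without replicate 1 and -0.0709 without replicate 3.

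*Hspa4l*, a chaperone of the Hsp110 family, was measured far more tightly. Its WT ratios were 0.445, 0.461 and 0.439 without Dox and 0.243, 0.218 and 0.258 with Dox, with z of -0.208 ± 0.0180 (SE, adjusted p = 2.45e-06). In *Suz12* null cells they were 0.400, 0.439 and 0.427 without Dox and 0.309, 0.351 and 0.353 with Dox, with z of -0.0842 ± 0.0180 (SE, adjusted p = 0.00171). The gene was therefore silenced in both lines, and every null Dox library lay above every WT Dox library. Its difference of 0.124 ± 0.0254 (SE) had the lowest adjusted p of any member (0.105) and missed the threshold. *Sclt1*, a component of centriole distal appendages, came next. It fell from 0.487, 0.492 and 0.506 to 0.349, 0.342 and 0.360 in WT and from 0.475, 0.480 and 0.487 to 0.425, 0.406 and 0.451 in the null, and the difference was 0.0915 ± 0.0208 (SE, adjusted p = 0.112). Its z in the null, -0.0533 ± 0.0147 (SE, adjusted p = 0.00765), missed the threshold without replicate 1 (adjusted p = 0.0978) or replicate 2 (adjusted p = 0.144).

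*Adad1*, which encodes an RNA-binding protein of male germ cells, and *Fabp5*, a fatty acid carrier, complete the 5 largest positive differences. *Adad1* had WT ratios of 0.302, 0.341 and 0.333 and, with Dox, 0.0690, 0.179 and 0.0435, and null ratios of 0.323, 0.403 and 0.184 and, with Dox, 0.138, 0.171 and 0.273. The WT groups were apart and the null groups overlapped, and the difference was 0.120 ± 0.0784 (SE, adjusted p = 0.476). The difference rests on replicate 3, without which the null z was -0.208 (adjusted p = 0.00759) and the difference -0.00961 (adjusted p = 0.935). Without replicates 1 and 2 in turn the null z was -0.0711 and -0.0475 and the difference 0.155 and 0.214. *Fabp5* had z of -0.176 ± 0.0466 (SE, adjusted p = 0.00492) in WT and -0.0643 ± 0.0466 (SE, adjusted p = 0.227) in the null, and differed by 0.112 ± 0.0659 (SE, adjusted p = 0.434). Its WT call was lost without replicate 1, at z of -0.146 (adjusted p = 0.0713). Its null z was -0.0634 without replicate 1, -0.102 without replicate 2 and -0.0276 without replicate 3.

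A smaller set leaned the other way, with lower z in the null than in WT, and again none passed the test of the difference. *Slc25a31* had the most negative difference, -0.116 ± 0.108 (SE, adjusted p = 0.646), from null ratios of 0.267, 0.316 and 0.308 without and 0.206, 0.148 and 0.143 with Dox and the scattered WT values above. Its null groups were apart, yet z of -0.131 ± 0.0764 (SE, adjusted p = 0.139) did not pass, and the difference was -0.295 without replicate 1, 0.0484 (adjusted p = 0.872) without replicate 2 and -0.102 without replicate 3. *Kcnmb2*, a regulatory subunit of BK potassium channels, had z of -0.0947 ± 0.0514 (SE, adjusted p = 0.105) in WT and -0.192 ± 0.0514 (SE, adjusted p = 0.00647) in the null, with a difference of -0.0972 ± 0.0726 (SE, adjusted p = 0.528). Its null NoDox ratios, 0.586, 0.422 and 0.408, were led by replicate 1, and without that replicate z was -0.123 (adjusted p = 0.0947) and the difference from WT -0.0227. The difference was -0.101 without replicate 2 and -0.168 without replicate 3. The deposited expression value of *Kcnmb2* was 0.0 RPKM, so its ratios may rest on few reads.

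The G protein subunit gene *Gnb4* had z of -0.0814 ± 0.0407 (SE, adjusted p = 0.0826) in WT and -0.161 ± 0.0407 (SE, adjusted p = 0.00470) in the null, and without replicate 3 the null value was -0.104. The WT value was -0.120 without replicate 1, -0.0910 without replicate 2 and -0.0329 without replicate 3. *Nceh1*, a cholesterol ester hydrolase, had z of -0.0789 ± 0.0194 (SE, adjusted p = 0.00324) in WT, a call lost without replicate 1 (adjusted p = 0.0513), and -0.136 ± 0.0194 (SE, adjusted p = 0.000121) in the null. The differences were -0.0796 ± 0.0575 (SE, adjusted p = 0.513) for *Gnb4* and -0.0574 ± 0.0275 (SE, adjusted p = 0.368) for *Nceh1*. *Mecom* is a special case, because its starting ratio was higher in the null. Its NoDox ratios there were 0.204, 0.195 and 0.255, all above the WT NoDox values, and its Dox ratios were 0.102, 0.106 and 0.168. The null z of -0.0927 ± 0.0258 (SE, adjusted p = 0.00790) therefore began from a level at which more of the Cast allele could be lost. It missed the threshold without replicate 1 (adjusted p = 0.0903), and the difference was -0.0695 ± 0.0365 (SE, adjusted p = 0.400).

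Distant genes were mostly silenced in *Lbr* null cells too. By limma 71 of 79 members (89.9%) were silenced in the 3 *Lbr* null clones, against 92.5% of all genes, and none was raised. In 71 members the clones' Dox libraries were all below their NoDox libraries, against 92.6% of all genes, and 9 members had z under -0.2, against 47.8%. The median z of members was -0.122, against -0.191 over all genes, with -0.114 in clone 4C7A, -0.126 in 4C8E and -0.127 in 4F9F. The clones gave nearly the same median, and 78 of 79 members had a negative z. With clone as a block 66 members passed, and 54 of the 71 passed with each clone left out in turn.

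The most silenced members in *Lbr* null cells were the run of *Pld1*, *Tnik* and *Eif5a2* that also stood out in WT. *Pld1* had NoDox ratios of 0.598, 0.678 and 0.650 and Dox ratios of 0.317, 0.340 and 0.327, with z of -0.314 ± 0.0228 (SE, adjusted p = 3.98e-05). *Tnik* went from 0.497, 0.495 and 0.502 to 0.200, 0.257 and 0.203, with z of -0.278 ± 0.0190 (SE, adjusted p = 3.13e-05), and *Eif5a2* from 0.432, 0.424 and 0.446 to 0.130, 0.176 and 0.182, with z of -0.271 ± 0.0183 (SE, adjusted p = 2.95e-05). No groups overlapped in these genes, and the clones were close to one another. *Anxa5*, a calcium-dependent phospholipid-binding protein, fell from 0.526, 0.483 and 0.629 to 0.354, 0.274 and 0.286, with z of -0.241 ± 0.0423 (SE, adjusted p = 0.00198). *Nudt6*, a Nudix hydrolase, fell from 0.529, 0.415 and 0.479 to 0.253, 0.187 and 0.264, with z of -0.239 ± 0.0354 (SE, adjusted p = 0.00091), also without overlap.

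Members with the least change in *Lbr* null cells mostly did not pass the test in WT either. *Exosc9*, a subunit of the RNA exosome, had clone ratios of 0.516, 0.518 and 0.479 without and 0.474, 0.483 and 0.544 with Dox, overlapping, and z of -0.00412 ± 0.0236 (SE, adjusted p = 0.875), which was 0.0147 without 4C7A and 0.0114 without 4C8E. In WT its z was -0.0256 ± 0.0233 (SE, adjusted p = 0.313) and in *Suz12* null cells -0.0243 ± 0.0233 (SE, adjusted p = 0.357). *Ccdc39*, needed for the assembly of motile cilia, had z of -0.0304 ± 0.0549 (SE, adjusted p = 0.610) in *Lbr* null and -0.0783 ± 0.0774 (SE, adjusted p = 0.352) in WT cells. Its libraries scattered widely, with clone ratios of 0.143, 0.182 and 0.263 without and 0.261, 0.167 and 0.0690 with Dox, and without 4F9F z was 0.0514. *Mecom* again started low in the clones, at 0.107, 0.102 and 0.119, and reached 0.0919, 0.0699 and 0.0783 with Dox, so its groups were apart at a z of only -0.0295 ± 0.0130 (SE, adjusted p = 0.0686).

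*Mynn*, a BTB zinc finger gene, was silenced in WT but not in the clones by the test applied. Its WT ratios were 0.475, 0.444 and 0.483 without Dox and 0.396, 0.431 and 0.362 with Dox, with z of -0.0707 ± 0.0219 (SE, adjusted p = 0.0114). The clones gave 0.407, 0.382 and 0.376 without Dox and 0.442, 0.334 and 0.384 with Dox, with z of -0.00186 ± 0.0289 (SE, adjusted p = 0.951), which was 0.0211 without 4C8E. The WT call was lost without replicate 1 (adjusted p = 0.0993) or replicate 3 (z of -0.0457, adjusted p = 0.0671), and since these libraries belong to separate tables, the difference was not tested. *Peril*, a long noncoding RNA, is listed beside the clones only. It began at 0.0303, 0.0455 and 0.0909 and stayed at 0.0385, 0.0909 and 0.0476, with z of 0.00344 ± 0.0229 (SE, adjusted p = 0.891), or -0.0176 without 4C8E. With so little Cast expression before induction no loss could be measured.

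The clones were also set against their own WT pair. That pair has 1 library with and 1 without Dox, which were assumed to vary as the clones do, so neither a difference nor its absence can be read from the test. By limma 0 of 79 members passed an adjusted p under 0.05, against 0% of all genes, and 5 an unadjusted p under 0.05, against 4.84%. Their share is near that of all genes, so the 5 are named as a record only and no difference is read from them. They were *Fndc3b*, *Phc3*, *Slc7a14* and *Peril*, with z nearer to 0 in the clones than in the pair, and *Rpl22l1*, with z farther from 0. *Peril* started from a ratio of 0.185 in the pair and a mean of 0.0556 in the clones, which leaves its values without a common starting point. *Slc7a14* had the widest difference of these, 0.193 ± 0.0716 (SE), with z of -0.305 in the pair and -0.112 in the clones, and its call in the clones was lost without 4C8E or 4F9F (adjusted p = 0.0651 and 0.0644). The median z of the pair was -0.121 over members.

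Over the 78 members in both tables, 40 were silenced by the test in WT, *Suz12* null and *Lbr* null cells, or 51.3%, against 73.7% of the 498 genes in both tables. Of the 40, 19 also passed with each replicate left out in turn. The 19 include *Tnik* and *Eif5a2*, *Hspa4l*, the receptor tyrosine kinase antagonist *Spry1*, the atypical protein kinase C gene *Prkci*, the flippase *Atp11b* and the mitochondrial carboxylase subunit *Mccc1*. A further 20 (25.6%, against 60 of the 498 genes) passed in WT and *Lbr* null but not in *Suz12* null cells, and none of them passed the test of the difference between *Suz12* null and WT. The other 18 members divide into small sets, of which 8 (10.3%, against 6.83%) passed in *Lbr* null cells alone and 4 (5.13%, against 3.41%) in no line, namely *Armc1*, *Mrpl47*, *Ccdc39* and *Exosc9*. Of the 8, *Car2*, *Ythdf3* and *Pik3ca* missed the threshold with clone as a block (adjusted p = 0.0521, 0.0655 and 0.0534). Only *Il7*, *Zfand1* and *Cyp7b1* of the 8 passed with each clone left out in turn. *Car2*, *Zfand1* and *Cyp7b1* were named after their values were seen.

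Calls in the smallest sets were mostly fragile. *Gyg*, *Kcnmb2* and *Gnb4* passed in both null lines but not in WT (3.85%, against 1.00% of all genes). The *Suz12* null call of *Gyg* was lost without replicate 2 (adjusted p = 0.143) and that of *Kcnmb2* without replicate 1 (adjusted p = 0.0947), and the *Lbr* null call of *Gnb4* without 4C8E (adjusted p = 0.0706). *Snx16* and *Mynn* passed in WT and in neither null line (2.56%, against 1.81%). The *Snx16* call was lost whichever replicate was left out (adjusted p = 0.0683, 0.0898 and 0.139), and that of *Mynn* without replicate 1 (adjusted p = 0.0993) or 3 (adjusted p = 0.0671). *Mecom* passed in *Suz12* null cells alone (1.28%, against 0.803%), a call lost without replicate 1 (adjusted p = 0.0903). *Gyg*, *Snx16* and *Mrpl47* were named after their values were seen.

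Classes of z gave a shorter list. *Tnik* was under -0.2 in all 3 lines, *Pld1*, *Eif5a2* and *Hspa4l* in WT and *Lbr* null, and *Mrps28*, *Ythdf3*, *Armc1*, *Pik3ca* and *Exosc9* were in the weak class in all 3. *Mrps28* was also named after its values were seen. Across members, which share the same libraries, the Spearman correlation of z was 0.805 between WT and *Lbr* null (n = 78) and 0.607 between WT and *Suz12* null cells (n = 87), against 0.884 (n = 498) and 0.845 (n = 538) over all genes.

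The distant genes serve many functions, and they were grouped by fixed lists. These are short, and a share called in a list that is near the share of all genes is not a result about the list. All 4 chromatin genes passed in WT and in *Lbr* null cells and 3 of 4 in *Suz12* null cells, against 85.5%, 92.5% and 73.2% of all genes, with medians of -0.0697, -0.0841 and -0.0401. *Jade1*, a scaffold of a histone acetyltransferase complex and the most highly expressed member at 146 RPKM, fell from 0.404, 0.406 and 0.428 to 0.324, 0.322 and 0.376 in WT, with z of -0.0718 ± 0.0189 (SE, adjusted p = 0.00476). *Hltf*, a SNF2-family DNA translocase, had z of -0.0825 ± 0.0139 (SE, adjusted p = 0.000274), and *Tbl1xr1*, of the NCoR corepressor, -0.0445 ± 0.0120 (SE, adjusted p = 0.00560). These are small reductions, with no overlap between the groups of any of the 3. *Phc3*, a Polycomb PRC1 subunit, was called in WT at -0.0676 ± 0.0142 (SE, adjusted p = 0.00122), whereas its *Suz12* null z of -0.0295 ± 0.0142 (SE, adjusted p = 0.0814) was not, and the difference was 0.0381 ± 0.0201 (SE, adjusted p = 0.400). In the clones its z of -0.0532 ± 0.0174 (SE, adjusted p = 0.0254) had an adjusted p = 0.0531 with clone as a block, and it missed the threshold without 4C7A (adjusted p = 0.186) or 4C8E (adjusted p = 0.147). Leaving out replicate 1 or 2 ended the WT calls of *Jade1* (adjusted p = 0.0713 and 0.0712) and *Tbl1xr1* (adjusted p = 0.0927 and 0.118). The *Suz12* null calls of *Jade1*, *Hltf* and *Tbl1xr1* were likewise lost without replicate 1 (adjusted p = 0.134, 0.0919 and 0.300) or replicate 2 (adjusted p = 0.141, 0.152 and 0.200), and that of *Phc3* was gained without replicate 3 (adjusted p = 0.0421) but not without 1 or 2 (adjusted p = 0.362 and 0.357).

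Of 5 transcription factors and cofactors, 3 passed in WT, 1 in *Suz12* null and 4 in *Lbr* null cells, against 85.5%, 73.2% and 92.5% of all genes, with medians of -0.0553, -0.0509 and -0.0684. *Zmat3*, a zinc finger target of p53, had z of -0.0674 ± 0.0132 (SE, adjusted p = 0.000749) in WT, from 0.470, 0.464 and 0.465 to 0.392, 0.398 and 0.406, and -0.0178 ± 0.0132 (SE, adjusted p = 0.236) in the null, with a difference of 0.0496 ± 0.0187 (SE, adjusted p = 0.340). Its null z was -0.00372 without replicate 1, -0.0256 without replicate 2 and -0.0241 without replicate 3. *Skil*, a repressor of TGF-beta signalling, had WT ratios of 0.455, 0.461 and 0.417 without Dox and 0.411, 0.412 and 0.384 with Dox. In the *Suz12* null it had 0.435, 0.437 and 0.419 without Dox and 0.433, 0.455 and 0.407 with Dox. The WT groups were just apart and the null groups overlapped, and the difference was 0.0433 ± 0.0249 (SE, adjusted p = 0.419). Its WT z of -0.0421 ± 0.0176 (SE, adjusted p = 0.0440) missed the threshold without replicate 1 (adjusted p = 0.220) or 2 (adjusted p = 0.196). *Zbtb10*, a zinc finger repressor, had z of -0.0955 ± 0.0277 (SE, adjusted p = 0.00821) in WT (adjusted p = 0.0526 without replicate 3) and -0.108 ± 0.0304 (SE, adjusted p = 0.0141) in the clones (adjusted p = 0.0725 without 4F9F).

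Signalling genes included some of the most and some of the least silenced members. Of 11 listed members 7 passed in WT, *Pld1* and *Tnik* among them, 7 in *Suz12* null and 9 of 10 in *Lbr* null cells, against 85.5%, 73.2% and 92.5% of all genes. The medians were -0.114 in WT, -0.137 in *Suz12* null and -0.154 in *Lbr* null cells. *Spry1* fell from 0.463, 0.475 and 0.496 to 0.276, 0.305 and 0.309 in WT, with z of -0.182 ± 0.0167 (SE, adjusted p = 4.12e-06), and from 0.500, 0.502 and 0.519 to 0.381, 0.381 and 0.421 in the null, with z of -0.113 ± 0.0167 (SE, adjusted p = 0.000159). Every null Dox library stayed above the WT Dox libraries, and the difference was 0.0689 ± 0.0237 (SE, adjusted p = 0.294). *Prkci* had WT z of -0.102 ± 0.0130 (SE, adjusted p = 3.93e-05). The lipid kinase gene *Pik3ca*, at 0.517, 0.513 and 0.487 without Dox and 0.472, 0.482 and 0.474 with Dox, had z of -0.0299 ± 0.0156 (SE, adjusted p = 0.0949) with groups just apart, and passed without replicate 3 (adjusted p = 0.0332) but not without 1 or 2 (adjusted p = 0.402 and 0.323). In the clones *Pik3ca* had z of -0.0452 ± 0.0157 (SE, adjusted p = 0.0313), with an adjusted p = 0.0534 with clone as a block and adjusted p = 0.186, 0.101 and 0.0731 without 4C7A, 4C8E and 4F9F. *Mynn*, *Lrrc34* and *Nudt6* stand in this list without being signalling proteins, and they are in its counts and medians. The WT median of the list is the z of *Lrrc34*, and the *Suz12* null median is that of *Nudt6*.

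Of 11 genes of RNA and protein synthesis, 8 passed in WT, 6 in *Suz12* null and 9 in *Lbr* null cells, against 85.5%, 73.2% and 92.5% of all genes, with medians of -0.109, -0.0762 and -0.150. *Spata5*, an AAA ATPase of ribosome maturation and a strongly expressed gene (69.3 RPKM), fell from 0.442, 0.462 and 0.480 to 0.303, 0.305 and 0.357 in WT, with z of -0.140 ± 0.0209 (SE, adjusted p = 0.000119). *Fndc3b*, a membrane protein with fibronectin domains, had z of -0.109 ± 0.0174 (SE, adjusted p = 0.000186), and *Ttc14* -0.0791 ± 0.0130 (SE, adjusted p = 0.000235). All 3 had groups that did not overlap in WT. *Fndc3b* and *Ankrd50* stand in this list without being known for RNA or protein synthesis, and they are in its counts and medians. The WT and *Lbr* null medians of the list are the z values of *Fndc3b*. The m6A reader *Ythdf3* passed in the clones alone, at -0.0377 ± 0.0126 (SE, adjusted p = 0.0271), and its adjusted p was 0.0655 with clone as a block. Leaving out 4C7A, 4C8E or 4F9F also ended that call (adjusted p = 0.119, 0.132 and 0.106).

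Metabolic and mitochondrial genes numbered 14, of which 9 passed in WT, 6 in *Suz12* null and all 10 listed ones in *Lbr* null cells, against 85.5%, 73.2% and 92.5% of all genes, with medians of -0.0815, -0.0821 and -0.151. *Mccc1*, of leucine breakdown, fell from 0.501, 0.509 and 0.515 to 0.405, 0.412 and 0.396 in WT, with z of -0.104 ± 0.0186 (SE, adjusted p = 0.000396). *Mtfr1*, a regulator of mitochondrial fission, had z of -0.0424 ± 0.0168 (SE, adjusted p = 0.0353), which missed the threshold without replicate 1 (adjusted p = 0.259) or 2 (adjusted p = 0.187). *Dcun1d1* and *Usp13*, which act in protein neddylation and deubiquitination, are in this list although neither is a metabolic enzyme. *Dcun1d1* had z of -0.0828 ± 0.0207 (SE, adjusted p = 0.00353) in WT, which missed the threshold without replicate 2 (adjusted p = 0.0910). *Dnajc19*, of the mitochondrial import motor, had overlapping WT ratios of 0.485, 0.442 and 0.524 without Dox and 0.449, 0.393 and 0.388 with Dox, and its z of -0.0735 ± 0.0285 (SE, adjusted p = 0.0323) was -0.0424 without replicate 3 (adjusted p = 0.231) and missed the threshold without replicate 2 too (adjusted p = 0.0762).

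Membrane traffic and secretory genes followed, with 8 of 10 passing in WT, 4 in *Suz12* null and 9 in *Lbr* null cells, against 85.5%, 73.2% and 92.5% of all genes, and medians of -0.0766, -0.0569 and -0.113. *Atp11b*, which flips phospholipids between membrane leaflets, went from 0.490, 0.484 and 0.461 to 0.374, 0.385 and 0.386 in WT and from 0.500, 0.491 and 0.498 to 0.413, 0.411 and 0.423 in the *Suz12* null. The gene was silenced in both lines, at -0.0967 ± 0.0129 (SE, adjusted p = 5.13e-05) and -0.0806 ± 0.0129 (SE, adjusted p = 0.00026). *Sec62*, of the translocon, had WT z of -0.0638 ± 0.0144 (SE, adjusted p = 0.00190), and *Tpd52*, a vesicle protein, -0.0428 ± 0.0166 (SE, adjusted p = 0.0323). The *Tpd52* call was lost without replicate 1 (adjusted p = 0.142) or 2 (adjusted p = 0.147). *Anxa5* was the most silenced gene of this list in WT, at -0.179 ± 0.0320 (SE, adjusted p = 0.000397), and in the *Suz12* null its z of -0.0764 ± 0.0320 (SE, adjusted p = 0.0508) lay just outside the threshold. Without replicate 3 it passed, at -0.109 (adjusted p = 0.0147), and it was -0.0361 (adjusted p = 0.449) without replicate 1 and -0.0843 (adjusted p = 0.133) without replicate 2. The difference from WT was 0.102 ± 0.0452 (SE, adjusted p = 0.367).

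Of 5 genes of cilia and centrosomes, 3 passed in each line, against 85.5% of all genes in WT, 73.2% in *Suz12* null and 92.5% in *Lbr* null cells, with medians of -0.0783 in WT, -0.0619 in *Suz12* null and -0.134 in *Lbr* null cells. Those passing were *Sclt1*, the BBSome subunit gene *Bbs7* and the planar polarity effector *Intu*. *Bbs7* fell from 0.385, 0.451 and 0.500 to 0.287, 0.246 and 0.333 in WT, with z of -0.157 ± 0.0355 (SE, adjusted p = 0.00194), and its *Suz12* null z of -0.0882 ± 0.0355 (SE, adjusted p = 0.0441) missed the threshold without replicate 1 (adjusted p = 0.108) or 2 (z of -0.0578, adjusted p = 0.302). *Intu* had WT z of -0.0746 ± 0.0235 (SE, adjusted p = 0.0125), which missed the threshold without replicate 1 (adjusted p = 0.112) or 2 (adjusted p = 0.106). Its *Suz12* null call was lost without replicate 2 (adjusted p = 0.369) or 3 (adjusted p = 0.0854). *Armc1*, listed here but known as a mitochondrial protein, was in the weak class in all lines.

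Only 4 of 19 listed genes of neural function, adhesion and matrix were members, and all 4 passed in WT, 3 of 4 in *Suz12* null and 3 of 3 in *Lbr* null cells, against 85.5%, 73.2% and 92.5% of all genes. The exception in *Suz12* null cells was *Fat4*, and the *Stmn2* call there was lost without replicate 1 (adjusted p = 0.0558) or 2 (adjusted p = 0.253). The medians of the list were -0.181, -0.0845 and -0.143. *Stmn2*, a neuronal regulator of microtubules, fell from 0.422, 0.441 and 0.467 to 0.336, 0.308 and 0.349 in WT, with z of -0.113 ± 0.0234 (SE, adjusted p = 0.00115), at 117 Mb from the transgene. *Pkia*, an inhibitor of protein kinase A at 118 Mb, fell from 0.472, 0.458 and 0.510 to 0.310, 0.345 and 0.390, with z of -0.132 ± 0.0214 (SE, adjusted p = 0.000219), and was silenced in the *Suz12* null at -0.104 ± 0.0214 (SE, adjusted p = 0.00141) and in the clones at -0.184 ± 0.0169 (SE, adjusted p = 0.000115). *Pkia* thus showed silencing near the far end of the chromosome in each line tested.

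Inside the region WT silencing was weakest at the far end. In WT the median z was -0.123 for the 10 members that start between 40 and 50 Mb and -0.103 for 38 between 30 and 40 Mb. It was -0.109 for 11 between 20 and 30 Mb, -0.0802 for 17 between 10 and 20 Mb and -0.0553 for the 11 below 10 Mb. In the same order the medians were -0.0802, -0.0878, -0.0958, -0.0360 and -0.0467 in *Suz12* null and -0.150, -0.121, -0.150, -0.111 and -0.0886 in *Lbr* null cells. No line changed evenly from bin to bin, and the farthest bin was not the weakest in *Suz12* null cells. The bins are thin, with under 20 genes in all but that between 30 and 40 Mb. Below 10 Mb 8 of 11 members passed the test in WT, 3 of 11 in *Suz12* null and 10 of 10 in *Lbr* null cells, and from 10 to 20 Mb 11 of 17, 3 of 17 and 14 of 16, against 85.5%, 73.2% and 92.5% of all genes. None of these had z under -0.2 in the replicated WT, *Suz12* null or *Lbr* null libraries. In the single WT pair beside the clones, 1 member between 10 and 20 Mb did. Across members the Spearman correlation of z with distance was 0.394 in WT, 0.354 in *Suz12* null and 0.289 in *Lbr* null cells (n = 87, 87 and 79), compared with 0.440, 0.464 and 0.434 over all genes of each table. Neighbouring members are not independent of one another, so these values are descriptions.

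The limit of 50 Mb falls in a stretch with few genes. Just inside it, *Pabpc4l* had WT z of -0.361, *D3Ertd751e* -0.150 and *Sclt1* -0.145. Just outside, the cystine transporter gene *Slc7a11* had -0.190, *Ccrn4l*, which encodes the circadian deadenylase-like nocturnin, -0.130, and the ETS factor gene *Elf2* -0.110. The values on either side of the limit are in one range apart from *Pabpc4l*.

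Weakly expressed members had the more negative z. Split into 3 groups of 29 by deposited RPKM, the lowest group (up to 4.35 RPKM) had a median z of -0.110 in WT and held 8 of the 10 highly silenced members, the middle group -0.100 with 2, and the highest group (from 15.0 RPKM) -0.0791 with none. In *Suz12* null cells the medians were -0.109, -0.0643 and -0.0411, and in *Lbr* null cells -0.145, -0.120 and -0.0824. Highly silenced members had a median of 1.75 RPKM and weak ones 14.4. In WT the calls ran the other way, with 18, 22 and 26 members passing from the lowest to the highest group. They did not in *Suz12* null cells, with 17, 11 and 16, and in *Lbr* null cells they were 22 of 24, 21 of 25 and 28 of 29, against 85.5%, 73.2% and 92.5% of all genes in WT, *Suz12* null and *Lbr* null cells. Whether read depth plays a part was not tested. Across members the Spearman correlation of z with RPKM was 0.304 in WT, 0.407 in *Suz12* null and 0.299 in *Lbr* null cells (n = 87, 87 and 78), against 0.293, 0.323 and 0.305 over all genes. For gene span the values over members were -0.0756, -0.111 and -0.122, against -0.292, -0.300 and -0.278 over all genes, so span went with z less among members than on the whole chromosome. For the WT NoDox ratio they were -0.126, 0.163 and -0.104, against -0.165, -0.0378 and -0.162.

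Several members named here, *Pabpc4l*, *Fat4*, *Adad1* and *Slc25a31* among them, are not listed beside the *Lbr* null clones, so nothing is known of them there. Of that kind, *Fabp12*, *Lrrc34* and *Ndufb5* did not pass the test in WT, nor did *Pex2* and *Slc25a31*, while *Dnajc19* did. *Fabp12*, a fatty acid binding protein listed at 0.0194 RPKM, had z of -0.0466 ± 0.0598 (SE, adjusted p = 0.463) in WT. *Lrrc34*, a leucine-rich repeat gene, had NoDox ratios of 0.167, 0.312 and 0.172 and Dox ratios of 0.0889, 0.160 and 0.0600 without overlap, and its z of -0.114 ± 0.0631 (SE, adjusted p = 0.110) did not pass. *Ndufb5*, of respiratory complex I, had 0.522, 0.492 and 0.448 without Dox and 0.423, 0.442 and 0.403 with Dox, also apart, with z of -0.0645 ± 0.0296 (SE, adjusted p = 0.0624). In the *Suz12* null both passed without replicate 2, *Lrrc34* at -0.211 (adjusted p = 0.0314) and *Ndufb5* at -0.114 (adjusted p = 0.0191), but not with all libraries. *Lrrc34* was at -0.0503 (adjusted p = 0.510) without replicate 1 and -0.154 (adjusted p = 0.150) without replicate 3, and *Ndufb5* at -0.0410 (adjusted p = 0.394) and -0.0444 (adjusted p = 0.295).

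Promoter sequences are shown for members at the ends of the ranking by WT z, as a record of what lies before their starts. A promoter was listed for 48 of the 88 members in the RefSeq table of GRCm38.p6, and the window from 250 bases before to 50 bases after the annotated start held a median of 21.5 CpG dinucleotides in these 48, against 21.0 over the 422 genes of the chromosome 3 tables with an entry. The 2 members with the lowest and the 2 with the highest WT z among those with an entry are printed as the 250 bases before the start, 5′ to 3′ on the gene's strand, with CpG in capitals, from the C57BL/6J reference, so the 129S and Cast alleles of these cells may differ. *Pabpc4l* (chr3:46447942-46448191, minus strand) and *Slc7a14* (chr3:31310320-31310569, minus strand) were highly silenced. *Slc25a31* (chr3:40708621-40708870, plus strand) and *Mecom* (chr3:30013205-30013454, minus strand) had z nearest to 0, but the spread of the former and the low starting ratio of the latter do not show that they escape silencing. The sequences hold 13, 15, 18 and 8 CpG dinucleotides in this order. For the same 250 bases the 48 members with an entry had a median of 16.5 (quartiles 12.75 and 23.0). The medians above are for the longer window, and no comparison was drawn from these counts.
Pabpc4l: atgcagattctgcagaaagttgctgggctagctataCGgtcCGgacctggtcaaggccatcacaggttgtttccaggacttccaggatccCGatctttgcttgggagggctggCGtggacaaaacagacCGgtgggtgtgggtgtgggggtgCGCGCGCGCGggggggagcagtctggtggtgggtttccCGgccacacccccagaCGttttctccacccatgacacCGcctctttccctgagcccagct
Slc7a14: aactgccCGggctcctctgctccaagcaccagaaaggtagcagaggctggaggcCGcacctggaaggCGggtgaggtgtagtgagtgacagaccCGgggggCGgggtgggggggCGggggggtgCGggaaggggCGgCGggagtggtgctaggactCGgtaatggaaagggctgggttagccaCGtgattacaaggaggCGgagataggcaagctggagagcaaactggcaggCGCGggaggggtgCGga
Slc25a31: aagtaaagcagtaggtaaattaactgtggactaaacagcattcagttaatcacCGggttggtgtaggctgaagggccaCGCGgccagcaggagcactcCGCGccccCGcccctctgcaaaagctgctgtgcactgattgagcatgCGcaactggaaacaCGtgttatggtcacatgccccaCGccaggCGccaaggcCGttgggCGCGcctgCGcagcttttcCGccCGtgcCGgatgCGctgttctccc
Mecom: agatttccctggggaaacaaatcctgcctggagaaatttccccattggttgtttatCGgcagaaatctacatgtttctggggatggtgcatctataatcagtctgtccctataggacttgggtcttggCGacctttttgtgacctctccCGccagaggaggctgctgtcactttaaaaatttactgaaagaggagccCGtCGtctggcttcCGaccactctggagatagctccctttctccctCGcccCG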

How the data were processed

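Allelic tables of iXist-Chr3 RNA libraries were the data, and 20 libraries of the 148 samples were used. The allelic ratios are a fraction, Xi/(Xi + Xa), which the authors computed per gene from reads assigned to the Cast or 129S allele of the same library. Expression is in RPKM, a single deposited value per gene scaled by the authors to transcript length and library size, and the libraries behind it are not named. Per the processing notes and the paper, the authors removed rRNA reads with Bowtie2 2.3.2, aligned the rest with STAR 2.4.2a, split them by allele with SNPsplit and counted them with featureCounts, and SAMtools, bedtools and edgeR are also named. The tables used here hold no read numbers behind single ratios, so precision was judged from the spread between libraries.

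Libraries were grouped by line and Dox as their titles give them. Members were the genes with a start below 50 Mb, without those barred by name or symbol type. Members and function lists were chosen with earlier results of these data known. The tables held 0 missing values and 0 identical libraries, and 0 members overlapped a listed gene on the same strand. The authors' columns of means, p-values and differences (5 in the WT and *Suz12* null table, 2 in the *Lbr* null table) and the chromosome X tables were not used.

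For each table limma 3.58.1 in R 4.3.3 fitted the mean of each group to all genes and tested Dox against NoDox and the difference of that effect between lines, with moderated variances and Benjamini-Hochberg adjustment over the whole table. Genes named in the text were picked by rank, by function list or by position next to the 50 Mb limit, and others are marked where they appear. The code was tested on simulated data. Whether Dox and NoDox libraries of the same number vary together was checked on residuals. The *Lbr* null clones pair as the same cell line, with correlations of -0.113 to 0.0283. Replicate numbers of the other table do not state a pairing, and their correlations were -0.104 to 0.164.

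Alternatives were a replicate block, leaving out each replicate, the logit of the ratio (limited to 0.01 and 0.99), NoDox ratios of 0.2 to 0.8, at least 1 RPKM, trended and robust variances, means in place of medians, members in both tables, and the methods' t-test for differences, for which the authors do not state the input, so it was run on each Dox library minus the average NoDox ratio of its line. A comparison of z with promoter GC and CpG was not made, because only 48 of 88 members have a promoter entry. Figures were drawn with matplotlib 3.10.9, and summaries used pandas 2.3.3, scipy 1.17.1 and numpy 2.4.6 under Python 3.11.15.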

Additional observations from a re-analysis of the deposited data

How the results depend on the processing

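Members silenced in *Suz12* null cells numbered 28 to 45 when a replicate was left out, against 44 with all libraries. With a replicate block the counts were 69 in WT, 45 in *Suz12* null and 66 in *Lbr* null cells, on the logit scale 66, 42 and 70, and with trended and robust variances 66, 45 and 72. No limma setting called a member for *Suz12* null against WT at an adjusted p under 0.05. The methods' t-test, with the input chosen here, gave 26 members without adjustment and 0 after Benjamini-Hochberg adjustment. The mean z of members in WT was -0.107, further from 0 than the median. The cause was not tested.

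Of 1322 results of named genes under other settings, 1217 stayed on the same side of the threshold with the same direction, 13 newly passed, 76 no longer passed and 16 changed direction. None of those that changed direction had passed the test. Genes named after their values were seen are not in this count, and of these *Mrpl47* and *Ralyl* changed direction in *Suz12* null cells, to -0.0680 without replicate 1 and -0.0116 without replicate 3. Leaving out each replicate in turn, z in *Suz12* null cells ranged over -0.0709 to 0.0325 for *Fat4*, -0.00320 to 0.000499 for *Ythdf3*, -0.0407 to 0.0236 for *Pex2*, -0.0239 to 0.0172 for *Mynn*, -0.0250 to 0.0375 for *Fabp12*, -0.00566 to 0.0374 for *Dnajc19* and -0.00709 to 0.00775 for *Skil*. In WT it ranged over -0.161 to 0.129 for *Slc25a31* and -0.0455 to 0.00352 for *Il7*. In *Lbr* null cells it ranged over -0.0176 to 0.0268 for *Peril*, -0.0203 to 0.0211 for *Mynn*, -0.0385 to 0.0147 for *Exosc9* and -0.105 to 0.0514 for *Ccdc39*. The difference between *Suz12* null and WT ranged over -0.00961 to 0.214 for *Adad1* and -0.295 to 0.0484 for *Slc25a31*.

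With 3 libraries per group and no read numbers, a gene that missed the threshold is not shown to be unsilenced. The *Lbr* null clones have only a single WT pair of another RNA fraction beside them, which supports no statement on a difference, and *Suz12* null and *Lbr* null cells were not compared with each other by a test.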

Other observations

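Adjacent members differed in WT z by varying amounts, and they were not compared with members that are not adjacent. Over 34 pairs of adjacent members with under 50 kb between them, the median absolute difference in WT z was 0.0314. The pairs in this paragraph and the next were named after their values were seen. *Slc25a31* and *Hspa4l* had the largest difference of these pairs, 0.194, which rests on the scattered ratios of *Slc25a31*.

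*Exosc9* and *Bbs7* are better measured. Their ends lie 7.42 kb apart, tail to tail, and in WT *Exosc9* had NoDox ratios of 0.510, 0.588 and 0.585 and Dox ratios of 0.511, 0.551 and 0.545, which overlapped. *Bbs7* was clearly lower with Dox in the same libraries, with z of -0.157 against -0.0256 for *Exosc9*. In *Lbr* null cells the values were -0.202 and -0.00412, and in *Suz12* null cells -0.0882 and -0.0243. The orphan receptor gene *Gpr160* and the Polycomb gene *Phc3* end 2.10 kb apart, also tail to tail, with WT z of -0.153 and -0.0676. Differences between neighbours were not tested.

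Labels leave several points unsettled. The titles and the growth protocol give different Dox times, of which the paper states that of the titles. The pair beside the *Lbr* null clones names another RNA fraction than its neighbours. The RPKM values come without the name of a library. These tables give the share of the Cast allele and not its amount, so a change of the 129S allele would also move a ratio.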
